A study of Mus musculus with 27 samples.

Results

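The microRNA profile of mouse embryonic stem (ES) cells lacking Ezh2 was compared with that of wild-type cells of the same line. The deposited tables list 2035 mature microRNA loci, and the comparison covers the 1000 loci that had at least 10 counts in the Ezh2-/- or the wild-type column. Both groups were cells of the line named cj7, wild-type or carrying the Ezh2-/- genotype, grown in serum medium with LIF and otherwise untreated. The sources used here do not say how the mutant line was derived or whether it is 1 clone. The series has 27 samples from 4 genotypes, the others being Eed-/- and Jarid2-/-, and covers chromatin and messenger RNA besides small RNA. The labels name 2 small RNA samples for each of Ezh2-/-, wild-type and Eed-/- and 1 for Jarid2-/-, but each genotype has 1 column of counts. Whether such a column stands for 1 sample or for both is not stated. There is thus no replicate error for any difference below, no test was made, and differences are given as ratios with intervals that cover counting error only.

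Ezh2 is the methyltransferase subunit of the Polycomb complex PRC2, which places H3K27me3 on the chromatin of silent genes, and Eed is the subunit that binds this mark. Jarid2 is a cofactor that helps PRC2 reach its targets. MicroRNAs are cut from hairpin transcripts, each of which can give a 5p and a 3p arm, and they bind messenger RNAs mainly through the seed at bases 2 to 8. ES cells are known for the miR-290 cluster and the miR-17-92 family, whose AAGUGC-containing seeds favour rapid division, and for low let-7. The Gtl2-Rian-Mirg locus on chromosome 12 is imprinted: its long noncoding RNAs and their many microRNAs come from the maternal chromosome, and the series title names PRC2 and DNA methylation at this locus.

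The mature sequences below carry the main differences, and are written as the deposited tables give them, with the seed in capitals. The first set is the miR-290 cluster of chromosome 7, shown because miR-291b-3p and miR-292-3p were called higher in Ezh2-/- and the other 3 were not called.
miR-291a-3p: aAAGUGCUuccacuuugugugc
miR-294-3p: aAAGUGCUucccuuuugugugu
miR-291b-3p: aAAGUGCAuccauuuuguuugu
miR-292-3p: aAAGUGCCgccagguuuugagugu
miR-293-3p: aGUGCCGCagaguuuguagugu
miR-291b-3p lies at chr7:3219530-3219551, plus strand (mm9), between miR-292-3p at chr7:3219239-3219262, plus strand and miR-293-3p at chr7:3220391-3220412, plus strand. It differs from miR-294-3p by 3 base changes and from miR-291a-3p by 4 over their 22 bases, and its seed, AAGUGCA, is not that of either.

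The second set holds 6 of the abundant microRNAs of the Gtl2-Rian-Mirg locus, shown because they have unrelated seeds and yet were all near 0 in Ezh2-/-.
miR-409-3p: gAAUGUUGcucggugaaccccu
miR-665-3p: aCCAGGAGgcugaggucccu
miR-376b-3p: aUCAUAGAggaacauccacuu
miR-154-3p: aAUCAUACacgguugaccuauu
miR-127-3p: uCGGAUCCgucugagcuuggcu
miR-541-5p: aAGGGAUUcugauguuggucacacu
miR-665-3p lies at chr12:110824578-110824597, plus strand, and miR-409-3p at chr12:110981414-110981435, plus strand, near the other end of the span (mm9).

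The third set pairs relatives with the same seed, shown because some pairs moved together and others did not.
miR-221-3p: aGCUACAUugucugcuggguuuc
miR-222-3p: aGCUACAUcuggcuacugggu
miR-204-5p: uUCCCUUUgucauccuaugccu
miR-211-5p: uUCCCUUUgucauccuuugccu
miR-103-3p: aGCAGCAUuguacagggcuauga
miR-107-3p: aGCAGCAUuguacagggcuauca
miR-200b-3p: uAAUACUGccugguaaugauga
miR-200c-3p: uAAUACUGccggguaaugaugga
miR-20a-5p: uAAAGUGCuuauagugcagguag
miR-20b-5p: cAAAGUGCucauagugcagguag
miR-221-3p (chrX:18723433-18723455, minus strand) and miR-222-3p (chrX:18724029-18724049, minus strand) are neighbours on chromosome X. miR-204-5p and miR-211-5p, on chromosomes 19 and 7, differ by 1 base, as do miR-103-3p and miR-107-3p, while miR-20a-5p and miR-20b-5p differ by 2.

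The last set is of single microRNAs that were far lower in Ezh2-/-.
miR-205-5p: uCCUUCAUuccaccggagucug
miR-210-3p: cUGUGCGUgugacagcggcuga
miR-218-5p: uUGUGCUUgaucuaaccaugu
miR-1190: uCAGCUGAgguuccccucuguc
miR-1190, at chr12:102259902-102259923, minus strand (mm9), lies on chromosome 12 but outside the imprinted span.

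The Ezh2-/- column held 32074712 microRNA counts and the wild-type column 23793733. Levels are counts-per-million values (CPM) over the microRNA counts of the same column, 10 counts being 0.312 CPM in Ezh2-/- and 0.420 CPM in wild-type. Ratios are log2 of Ezh2-/- over wild-type after adding 1 CPM to both, and a locus is called where that ratio is at least 1 in size, a 2-fold difference. Of the 1000 loci, 49 (4.9%) were called higher in Ezh2-/- and 245 (24.5%) lower, and the median log2 ratio was -0.44. The counting interval of the fold excluded equality for all 49 and all 245 called loci. It uses the same counts as the call, which already needs a 2-fold ratio, so it adds no separate support. Outside the Gtl2-Rian-Mirg span, 49 of 896 loci were called higher and 145 lower, with a median of -0.34. Across those loci the log2 levels of both columns had a Pearson correlation of 0.970 and a Spearman correlation of 0.945, a description across loci of 2 columns.

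The split depends on the scaling. Scaling by TMM moved every level ratio up by 0.42 on the log2 scale and gave 96 higher and 199 lower calls, with a median of -0.15. Median-ratio scaling gave 109 and 189, and the deposited reads-per-million denominators gave 101 and 194. Under all 4 scalings, 49 loci were higher and 189 lower, 100 of the latter in the Gtl2-Rian-Mirg span and 89 outside it. Calls named below that do not hold under all 4 are said to depend on the scaling. The other 3 scalings raise every ratio, so that they add higher calls and remove lower ones. Lists outside the span are to be read against the 896 loci there, of which 5.47% were called higher and 16.2% lower. The Ezh2-/- column was also more concentrated: its 10 most abundant mature names took 60.4% of its counts, against 51.1% in wild-type. Of the 20 most abundant names, 17 were the same in both columns. miR-291b-3p, miR-20a-5p and miR-150-5p belonged to the Ezh2-/- list only, and miR-107-3p, miR-24-3p and miR-21a-5p to the wild-type list only.

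**Figure D1:**
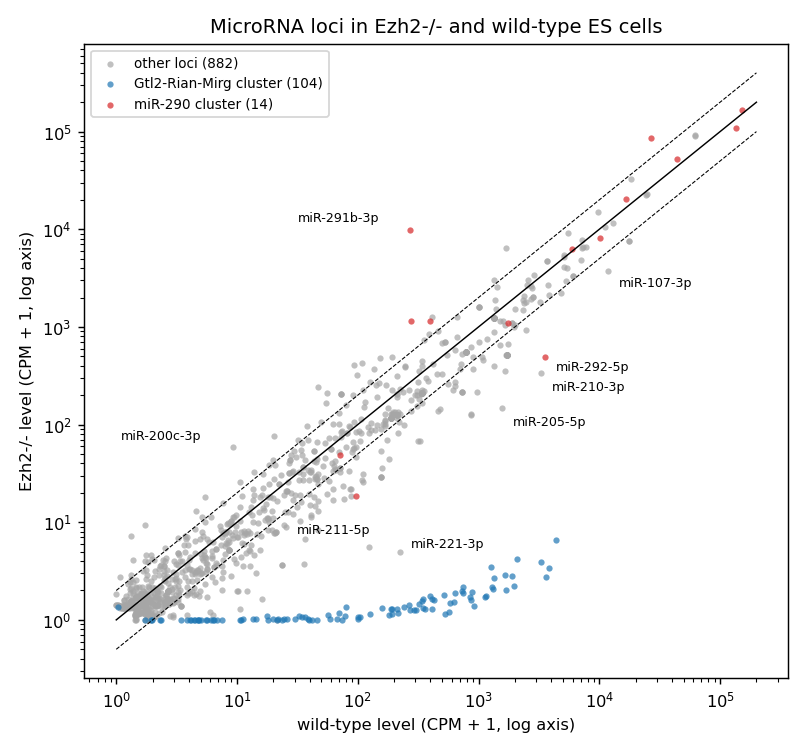
Level of each of the 1000 loci in wild-type (x axis) and Ezh2-/- (y axis), as CPM + 1 on log axes, with points coloured by cluster. The solid line marks equal levels and the dashed lines 2-fold differences. The 104 Gtl2-Rian-Mirg loci lie along the bottom, and miR-291b-3p stands above the diagonal.

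The Gtl2-Rian-Mirg microRNAs were nearly absent from the Ezh2-/- column. The span from miR-770 to miR-3072 (chr12:110801920-110986159, mm9, 184 kb) holds 115 loci, of which 104 were tested. It gave 1554 counts in Ezh2-/-, 1155999 in wild-type, 316118 in Eed-/- and 23590 in Jarid2-/-. Scaled to the total of each column, that was 48.4 CPM in Ezh2-/-, 48584 in wild-type, 7474 in Eed-/- and 2780 in Jarid2-/-. The span thus made up 4.86% of microRNA counts in the wild-type column and 0.00484% in the Ezh2-/- column, a summed level 1003-fold lower (95% interval 954 to 1055). Of the 104 tested loci, 100 were called lower and none higher, and the median log2 ratio was -6.59 against -0.44 over all tested loci. The median tested member had 2372 counts in wild-type and 4.5 in Ezh2-/-, and 31 had 0 counts in Ezh2-/-.

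miR-409-3p, the most abundant member in wild-type, had 181 counts in Ezh2-/-, 104289 in wild-type, 24647 in Eed-/- and 262 in Jarid2-/-. Its level was 5.64 CPM in Ezh2-/-, 4383 in wild-type, 583 in Eed-/- and 30.9 in Jarid2-/-. In Ezh2-/- it was thus 777-fold lower than in wild-type (95% interval 671 to 904). With miR-494-3p, at 103 counts in Ezh2-/- and 49501 in wild-type, it was 1 of 2 members with 100 or more counts in the Ezh2-/- column. miR-665-3p, from the Gtl2-proximal end, had 76 counts in Ezh2-/- and 91052 in wild-type and was 1615-fold lower in Ezh2-/- (95% interval 1290.2 to 2050.0). miR-376b-3p, of the Mirg part, had 57 counts in Ezh2-/- and 85950 in wild-type and was 2033-fold lower in Ezh2-/- (95% interval 1569 to 2684). The last locus of the span, miR-3072-3p, had 11 counts in Ezh2-/- and 1867 in wild-type and was 229-fold lower in Ezh2-/- (95% interval 128 to 459), less than the members named before it.

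miR-154-3p had 94 counts in Ezh2-/- and 78956 in wild-type, a level 1132-fold lower. miR-127-3p, which is cut from the transcript antisense to the paternally expressed Rtl1, had 39 counts in Ezh2-/- and 46523 in wild-type, a level 1608-fold lower. miR-379-5p, the first large member of the Mirg group, had 59 counts in Ezh2-/- and 44586 in wild-type, a level 1019-fold lower. Each of these abundant members was thus nearly absent from the Ezh2-/- column. Over the 61 members with 1000 or more wild-type counts, 2 (miR-540-5p and miR-380-3p) had 0 counts in Ezh2-/- and the rest were from 229-fold (miR-3072-3p) to 3354-fold (miR-433-3p) lower, with a median of 1086. The count of 0 for miR-380-3p, against 1750 in wild-type, sets its level at least 786-fold lower at a floor of 3 counts.

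The few counts left in Ezh2-/- were spread over the span. Across the 104 tested loci of the span, log2 levels in both columns had a Pearson correlation of 0.795 and a Spearman correlation of 0.918. This is a description only, since nearly all of these loci passed the minimum through their wild-type counts, 31 have 0 counts in Ezh2-/- and the points share 2 libraries. The order was not the same at the top: miR-665-3p, second in wild-type, had fewer Ezh2-/- counts than miR-494-3p, miR-154-3p and miR-666-3p. The 10 members most abundant in wild-type held 52.9% of the span's wild-type counts and 48.8% of its Ezh2-/- counts. The first 37 loci, miR-770-5p to miR-370-3p, were summed at 1125-fold lower (95% interval 1014 to 1252). The 78 loci after the widest gap, miR-882 to miR-3072-3p, were 966-fold lower (95% interval 913 to 1023).

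Exceptions in the span were scarce and rare in counts. The tested loci without a call were miR-1197-5p, miR-3070a-5p, miR-3070b-5p and miR-3544-5p. The first 3 had 17, 23 and 22 counts in wild-type and 0 in Ezh2-/-, which the added 1 CPM keeps under the threshold. miR-3544-5p, on the minus strand and so transcribed against the cluster, had 11 counts in Ezh2-/- and 1 in wild-type. miR-299b-5p, also annotated on the minus strand, had 16 counts in Ezh2-/- and 13665 in wild-type. It is close in sequence to miR-299a-5p of the plus strand, at 17 counts in Ezh2-/- and 14869 in wild-type, so that reads of both may not be separable.

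Neighbouring microRNAs on chromosome 12 did not share the loss. miR-345-5p, 727 kb before the span, had 25489 counts in Ezh2-/-, 15757 in wild-type, 22128 in Eed-/- and 7218 in Jarid2-/-. miR-342-3p, 905 kb before it, had 21912 counts in Ezh2-/-, 11845 in wild-type, 28204 in Eed-/- and 2442 in Jarid2-/-. miR-1247-5p, 530 kb after the span and beside Dio3, had 81 counts in Ezh2-/- and 31 in wild-type. The log2 ratios of these 3 were 0.26, 0.46 and 0.61, none of them called. The Eed-/- and Jarid2-/- comparisons use the same wild-type column, and their summed counts for the span are given above only side by side.

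**Figure D2:**
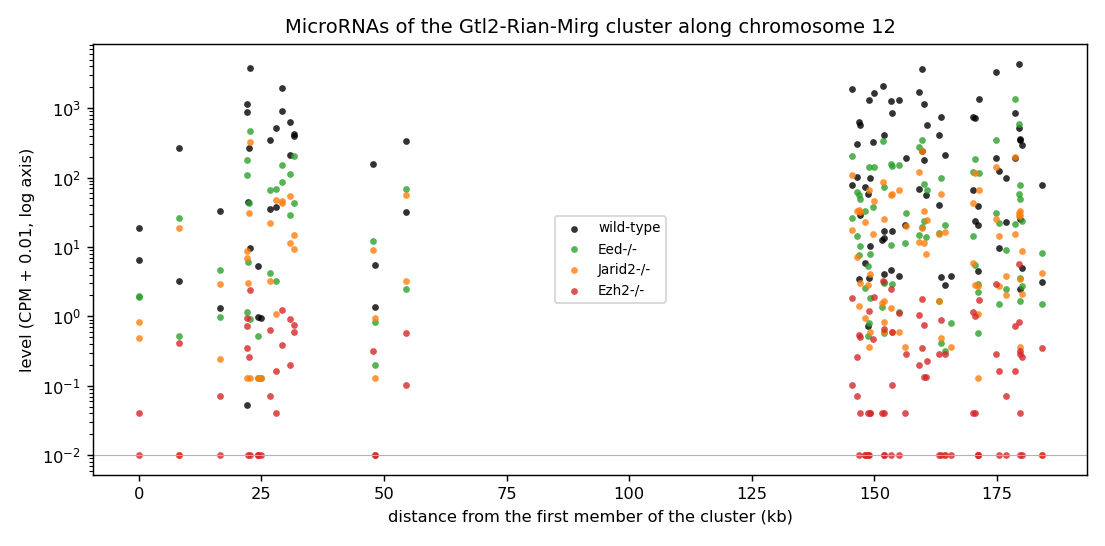
Level of each tested microRNA of the Gtl2-Rian-Mirg span (y axis, CPM + 0.01, log axis) by its distance in kb from the first member (x axis), with 1 point per locus and column. Ezh2-/- points lie at the bottom over the whole span, many on the line that marks 0 counts, and wild-type points are the highest for most loci.

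The miR-290 cluster remained the most abundant group, but its members and arms shifted. Of its 18 loci, 14 were tested; 4 were called higher, 2 lower and 8 not called, with a median log2 ratio of 0.09. The cluster took 45.9% of microRNA counts in Ezh2-/- and 39.7% in wild-type. The most abundant microRNA of both columns, miR-294-3p, had 164809 CPM in Ezh2-/-, 152826 in wild-type, 115428 in Eed-/- and 151279 in Jarid2-/-. miR-293-3p, second in both, had 108603 CPM in Ezh2-/-, 134932 in wild-type, 133783 in Eed-/- and 64340.3 in Jarid2-/-. Neither differed by 2-fold, and the same held for miR-290a-5p, miR-291a-3p and miR-295-3p.

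miR-291b-3p showed the largest higher ratio of the whole comparison. It had 318445 counts in Ezh2-/-, 6390 in wild-type, 127432 in Eed-/- and 38782 in Jarid2-/-, that is 9928 CPM in Ezh2-/-, 269 in wild-type, 3013 in Eed-/- and 4570.2 in Jarid2-/-. Its level was 37.0-fold higher in Ezh2-/- (95% interval 36.1 to 37.9), which moved it from rank 168 of the wild-type names to rank 12 in Ezh2-/-. The wild-type value is the lowest of the 4 columns by more than 10-fold, and the Ezh2-/- value is the highest. The 5p arm of that hairpin, miR-291b-5p, had 1155 CPM in Ezh2-/-, 274 in wild-type, 4931 in Eed-/- and 2174 in Jarid2-/-, and was 4.21-fold higher in Ezh2-/- (95% interval 4.10 to 4.32).

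miR-292-3p, whose AAGUGCC seed it shares with miR-290a-3p, had 85326 CPM in Ezh2-/-, 26769 in wild-type, 80159 in Eed-/- and 43537 in Jarid2-/- and was 3.19-fold higher in Ezh2-/- (95% interval 3.18 to 3.20). miR-290a-3p had 1159 CPM in Ezh2-/-, 397 in wild-type, 977 in Eed-/- and 786 in Jarid2-/- and was 2.92-fold higher in Ezh2-/- (95% interval 2.85 to 2.99). In both, wild-type was the lowest of the 4 columns. Of the 5p arms, 2 were called lower. miR-292-5p had 495 CPM in Ezh2-/-, 3582 in wild-type, 24773 in Eed-/- and 22355 in Jarid2-/- and was 7.23-fold lower in Ezh2-/- (95% interval 7.11 to 7.36). miR-294-5p had 17.5 CPM in Ezh2-/-, 96.5 in wild-type, 6968 in Eed-/- and 3804 in Jarid2-/- and was 5.52-fold lower in Ezh2-/- (95% interval 5.03 to 6.06). For these arms Ezh2-/- was the lowest column and wild-type the next lowest, well under Eed-/- and Jarid2-/-.

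The log2 ratios of both arms differed by 2 or more for 3 of the 7 hairpins of the cluster with at least 50 counts for each arm, and their 5p shares of the counts of both arms are given here. For miR-292 it was 0.577% in Ezh2-/-, 11.8% in wild-type, 23.6% in Eed-/- and 33.9% in Jarid2-/-. For miR-291b it was 10.4% in Ezh2-/-, 50.5% in wild-type, 62.1% in Eed-/- and 32.2% in Jarid2-/-, and for miR-294 0.0106% in Ezh2-/-, 0.0631% in wild-type, 5.69% in Eed-/- and 2.45% in Jarid2-/-. All 3 shares were lower in Ezh2-/- than in wild-type, though for miR-291b Jarid2-/- was under wild-type as well. Of the other hairpins, the share of miR-290a went from 99.1% in wild-type to 97.8% in Ezh2-/-, that of miR-291a from 14.8% to 11.7% and that of miR-295 from 0.419% to 0.231%. Only that of miR-293 went up, from 4.24% to 5.46%. The RefSeq hairpins (table of build GRCm38.p6) show both arms, here in capitals, of the 2 hairpins of the cluster whose arms differed most.
Mir292: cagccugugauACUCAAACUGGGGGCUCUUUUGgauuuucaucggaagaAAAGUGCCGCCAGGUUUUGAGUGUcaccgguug
Mir291b: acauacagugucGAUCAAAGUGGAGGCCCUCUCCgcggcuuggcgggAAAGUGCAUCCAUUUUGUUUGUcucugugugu
Over the whole cluster the arms moved less: 5p arms took 6.09% of microRNA counts in Ezh2-/- and 5.54% in wild-type, and 3p arms 39.8% and 34.2%. miR-290a-5p, which was not called, made up most of the 5p counts in both columns.

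**Figure D3:**
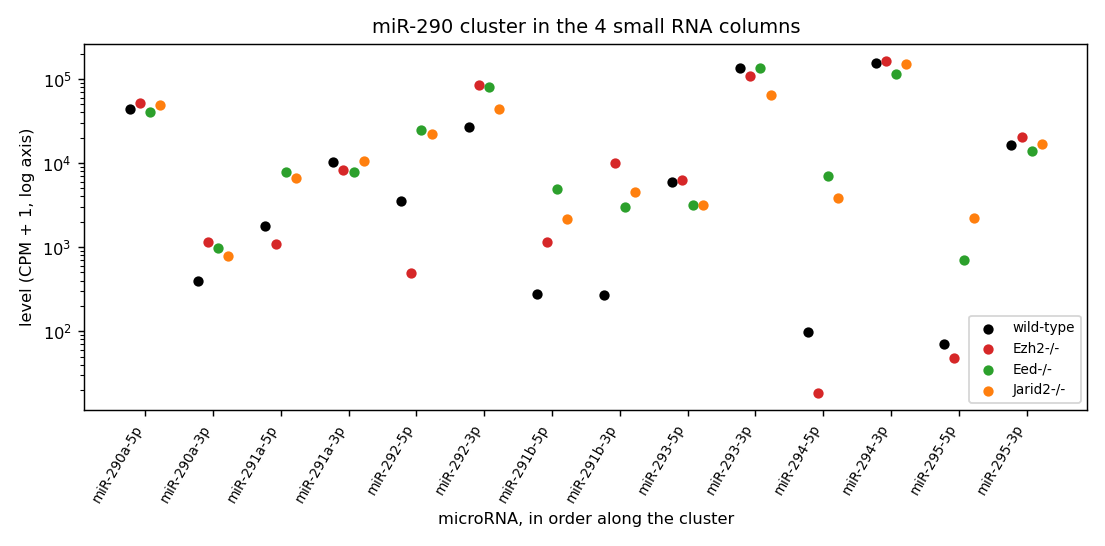
Level of the 14 tested members of the miR-290 cluster in each of the 4 columns (y axis, CPM + 1, log axis), in their order along the cluster (x axis). The wild-type point is far below the others for miR-291b-3p, and the Ezh2-/- point is the lowest for miR-292-5p and miR-294-5p.

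The other clusters linked to ES cell division differed in their calls. In the miR-17-92 cluster of chromosome 14, 3 of 12 tested loci were called higher and none lower, with a median log2 ratio of 0.77. With the other scalings 7 (TMM), 9 (median-ratio) and 8 (reads-per-million denominators) of the 12 were called higher. miR-20a-5p had 6375 CPM in Ezh2-/-, 1699 in wild-type, 4196 in Eed-/- and 6467 in Jarid2-/- and was 3.75-fold higher in Ezh2-/- (95% interval 3.71 to 3.79). miR-18a-5p was 2.28-fold higher and miR-19b-1-5p 2.70-fold higher, while miR-17-5p, the best known member, was 1.79-fold higher and called under the other 3 scalings only. The wild-type level of miR-20a-5p was again the lowest of the 4.

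In the paralogous miR-106a-363 cluster of chromosome X, 3 of 12 were called lower and none higher, with a median of -0.40. That share, 25%, rests on 3 loci and stands beside 16.2% lower and a median of -0.34 over all tested loci outside the span. miR-363-3p had 216 CPM in Ezh2-/-, 967 in wild-type, 485 in Eed-/- and 1203 in Jarid2-/- and was 4.48-fold lower in Ezh2-/- (95% interval 4.36 to 4.60). miR-19b-2-5p was 3.42-fold lower and miR-363-5p 2.55-fold lower, the latter depending on the scaling. miR-20b-5p, which shares its seed with miR-20a-5p, had 6571 CPM in Ezh2-/- and 7749.7 CPM in wild-type, a log2 ratio of -0.24. The mature names miR-19b-3p and miR-92a-3p occur in both clusters and their reads cannot be assigned to 1 of them. None of the 6 tested loci of the miR-106b-25 cluster was called, their ratios running from -0.43 to 0.40.

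In the miR-302 cluster, most of whose 3p arms share the AAGUGCU seed and which marks the primed pluripotent state, 1 of 10 was called lower and none higher, with a median of -0.48. The called locus, miR-302a-5p, had 30.1 CPM in Ezh2-/-, 108 in wild-type, 171 in Eed-/- and 157 in Jarid2-/-. Its most abundant member, miR-302d-3p, had 2655 CPM in Ezh2-/-, 3784 in wild-type, 7988 in Eed-/- and 6049 in Jarid2-/-, and was not called.

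Summed by seed, the profile of Ezh2-/- held larger shares of 2 groups. The 22 names whose seeds contain AAGUGC took 35.6% of counts in Ezh2-/- and 25.9% in wild-type. Within them, the AAGUGCC seed of miR-292-3p, miR-290a-3p and miR-467a-5p took 9.20% of microRNA counts in Ezh2-/- and 3.50% in wild-type, while the AAGUGCU seed of miR-294-3p and the miR-302 microRNAs took 19.8% of microRNA counts in Ezh2-/- and 18.6% in wild-type. The GUGCAAA seed of miR-19a-3p and miR-19b-3p took 18.6% of microRNA counts in Ezh2-/- and 12.7% in wild-type. In the other direction, the GCAGCAU seed of miR-103-3p and miR-107-3p took 1.89% of microRNA counts in Ezh2-/- and 4.73% in wild-type. The last was the only 1 of the 10 most abundant seeds whose sum was at least 2-fold lower, and AAGUGCC the only 1 at least 2-fold higher. Sums count a name at each of its loci, and miR-467a-5p, which was not called, is annotated at 10. With each name counted once, the AAGUGCC sum was 3.10-fold higher instead of 2.63-fold. The GUGCAAA shares were then smaller, 11.5% in Ezh2-/- and 7.92% in wild-type, as were those of GCAGCAU, 1.37% in Ezh2-/- and 3.60% in wild-type.

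miR-103-3p and miR-107-3p, which act on lipid and insulin signalling genes and lie in introns of the Pank genes, were lower together. miR-107-3p had 3778 CPM in Ezh2-/-, 11868 in wild-type, 11745 in Eed-/- and 23625 in Jarid2-/- and was 3.14-fold lower in Ezh2-/- (95% interval 3.12 to 3.16). miR-103-3p had 7546 CPM in Ezh2-/-, 17694 in wild-type, 12245 in Eed-/- and 24648 in Jarid2-/- and was 2.34-fold lower in Ezh2-/- (95% interval 2.33 to 2.36), a call that depends on the scaling. With 1 base between them, reads of both may be shared. Ezh2-/- was the lowest column for each.

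Outside the imprinted span the lowest log2 ratio with 1 CPM added was that of miR-221-3p, a microRNA that targets the cell cycle inhibitor p27. It had 128 counts in Ezh2-/-, 5252 in wild-type, 7777 in Eed-/- and 401 in Jarid2-/-, or 3.99 CPM in Ezh2-/-, 221 in wild-type, 184 in Eed-/- and 47.3 in Jarid2-/-. The level was 55.3-fold lower in Ezh2-/- (95% interval 46.4 to 66.4). Its neighbour and seed relative miR-222-3p had 35.2 CPM in Ezh2-/-, 158 in wild-type, 121 in Eed-/- and 54.7 in Jarid2-/- and was 4.48-fold lower. All 4 tested arms of the pair were called lower, miR-221-5p by a margin that depends on the scaling, and Ezh2-/- was the lowest column for both 3p arms.

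miR-211-5p and miR-204-5p, which share the UCCCUUU seed and are known from pigment cells and the retinal pigment epithelium, were both lower. miR-211-5p had 4.61 CPM in Ezh2-/-, 122 in wild-type, 29.1 in Eed-/- and 4.71 in Jarid2-/- and was 26.5-fold lower in Ezh2-/- (95% interval 22.4 to 31.4). miR-204-5p had 2.74 CPM in Ezh2-/-, 34.9 in wild-type, 11.1 in Eed-/- and 4.48 in Jarid2-/- and was 12.7-fold lower in Ezh2-/- (95% interval 10.2 to 16.0). Wild-type was the highest column for both, and their 3p arms had too few counts to be tested.

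miR-210-3p, a microRNA induced by hypoxia through HIF, had 336 CPM in Ezh2-/-, 3317 in wild-type, 554 in Eed-/- and 82.5 in Jarid2-/- and was 9.87-fold lower in Ezh2-/- (95% interval 9.67 to 10.1). Its 5p arm was 4.13-fold lower. Wild-type was the highest of the 4 columns here too, and Jarid2-/- rather than Ezh2-/- the lowest for the 3p arm. miR-205-5p, known from epithelial progenitors, had 147 CPM in Ezh2-/-, 1554 in wild-type, 1011 in Eed-/- and 4088 in Jarid2-/- and was 10.6-fold lower in Ezh2-/- (95% interval 10.3 to 10.9), with Ezh2-/- alone far under the other columns.

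miR-218, encoded in introns of Slit2 and Slit3, was lower in 3 of 4 tested loci. miR-218-5p, annotated at 2 loci with nearly equal counts, had 125 CPM in Ezh2-/-, 872 in wild-type, 709 in Eed-/- and 674 in Jarid2-/- and was 6.98-fold lower in Ezh2-/- (95% interval 6.75 to 7.22). miR-218-2-3p, which comes from the Slit3 copy only, had 20 counts in Ezh2-/- and 362 in wild-type. For miR-1190, of which no function is given here, the counts were 0 counts in Ezh2-/-, 482 in wild-type, 42 in Eed-/- and 136 in Jarid2-/-. Scaled, miR-1190 had 20.3 CPM in wild-type, 0.993 in Eed-/- and 16.0 in Jarid2-/-. At a floor of 3 counts its level was at least 217-fold lower in Ezh2-/-.

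Several further families held lower calls. Of 9 tested miR-181 loci, 8 were called lower, 5 of them under all 4 scalings. These 5 were both copies of miR-181a-5p, both copies of miR-181b-5p, and miR-181a-1-3p. Copies had nearly equal ratios and may share reads, so the 5 are not separate calls. The miR-181 family acts in lymphocyte and neural differentiation. Its most abundant member, miR-181c-5p, had 668 CPM in Ezh2-/-, 1749.6 in wild-type, 601 in Eed-/- and 466 in Jarid2-/- and was 2.62-fold lower in Ezh2-/- (95% interval 2.58 to 2.66), depending on the scaling. miR-181a-5p had 2.62 CPM in Ezh2-/-, 22.4 in wild-type, 22.1 in Eed-/- and 11.5 in Jarid2-/- and was 8.55-fold lower in Ezh2-/- (95% interval 6.78 to 10.9). The copies on chromosomes 1 and 2 thus differed more than those on chromosome 8, at levels under 100 CPM.

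Of 7 tested loci of miR-199 and miR-214, known from mesenchymal cells, 6 were called lower under all 4 scalings. The 6 hold both copies of miR-199a-5p and of miR-199a-3p, besides miR-199b-3p and miR-214-3p, so they are not separate microRNAs. miR-199a-3p, identical in sequence to miR-199b-3p, had 27.9 CPM in Ezh2-/-, 155 in wild-type, 41.5 in Eed-/- and 157 in Jarid2-/- and was 5.57-fold lower. miR-214-3p, from the same transcript as the chromosome 1 copy, had 4 counts in Ezh2-/-, 128 in wild-type, 50 in Eed-/- and 3 in Jarid2-/-. miR-199b-5p was the exception, at 94.2 CPM in Ezh2-/- and 85.9 CPM in wild-type. The whole list of fibroblast and mesenchymal markers, taken by mature name rather than by locus (10 names, 8 tested), had 6 lower and 0 higher. It summed to 667 CPM in Ezh2-/-, 1714 in wild-type, 620.4 in Eed-/- and 907 in Jarid2-/-, with 2 names at 0 in Ezh2-/- and none at 0 in wild-type. The part of such cells in the lower calls was not tested, and fewer cells of a type and less microRNA per cell cannot be told apart in bulk samples.

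miR-143-3p, of smooth muscle, had 43.1 CPM in Ezh2-/-, 179 in wild-type, 49.9 in Eed-/- and 5.54 in Jarid2-/- and was 4.15-fold lower, while its cluster partner miR-145a-5p was 2.34-fold lower, depending on the scaling. Of 12 loci of miR-23, miR-27 and miR-24, 6 were called lower, but 1 (miR-24-1-5p) under all 4 scalings. Of 8 miR-29 loci, 3 were called lower and 0 under all 4. miR-24-3p, the most abundant of these, had 3313 CPM in Ezh2-/- and 6051 CPM in wild-type, and miR-29a-3p had 648 CPM in Ezh2-/- and 1501 CPM in wild-type. The let-7 family, which opposes the miR-290 cluster in differentiation, was low in both columns: its 24 loci summed to 284 CPM in Ezh2-/- and 469 CPM in wild-type, and 3 of 20 tested were called lower, 1 of them (let-7i-3p, at 3 and 43 counts) under all 4 scalings. At 15% that is no more than the 16.2% outside the span.

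miR-101 and miR-26, both known to target the Ezh2 messenger RNA, held 4 lower calls and 1 higher call. miR-101b-3p had 67.2 CPM in Ezh2-/-, 327 in wild-type, 731 in Eed-/- and 596 in Jarid2-/- and was 4.86-fold lower in Ezh2-/- (95% interval 4.63 to 5.10). miR-101a-3p had 144 CPM in Ezh2-/-, 483 in wild-type, 711 in Eed-/- and 954 in Jarid2-/- and was 3.35-fold lower. miR-26b-5p had 480.3 CPM in Ezh2-/-, 152 in wild-type, 291 in Eed-/- and 419 in Jarid2-/- and was 3.16-fold higher in Ezh2-/- (95% interval 3.05 to 3.28), but miR-26a-5p, the more abundant relative, was at 2019.5 CPM in Ezh2-/- and 2797 CPM in wild-type and not called. The 5 calls among the 11 tested loci of both hold under all 4 scalings.

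The higher calls were fewer and mostly of single arms. The largest log2 ratio after miR-291b-3p, with 1 CPM added and among loci with at least 50 counts, was that of miR-200c-3p, at 57.6 CPM in Ezh2-/-, 8.28 in wild-type, 70.2 in Eed-/- and 16.7 in Jarid2-/- and 6.95-fold higher in Ezh2-/-. miR-200b-3p, with the same AAUACUG seed, was 4.45-fold higher in Ezh2-/- (95% interval 4.25 to 4.66). Both target the Zeb repressors of the epithelial state, but the other 8 tested loci of the miR-200 family were not called: miR-200a-3p had 1911 CPM in Ezh2-/- and 2728 CPM in wild-type and miR-141-3p 1158 CPM in Ezh2-/- and 1506 CPM in wild-type. The summed level of the family, 3896 CPM in Ezh2-/- and 4800.1 CPM in wild-type, went the other way, these 2 abundant members making up most of it.

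miR-192-5p, of liver and gut epithelium, had 1257 CPM in Ezh2-/-, 413 in wild-type, 316 in Eed-/- and 436 in Jarid2-/- and was 3.04-fold higher in Ezh2-/- (95% interval 2.98 to 3.11), and its 3p arm was 3.86-fold higher. Markers of liver and gut (11 mature names, 6 tested) summed to 1386 CPM in Ezh2-/-, 516 in wild-type, 376 in Eed-/- and 514 in Jarid2-/-, most of it miR-192-5p. Of these names, 3 were at 0 in Ezh2-/- and 1 in wild-type. The part of such cells was not tested. miR-126a-3p, of endothelium, had 319 CPM in Ezh2-/-, 97.3 in wild-type, 494 in Eed-/- and 25.6 in Jarid2-/- and was 3.28-fold higher, whereas its 5p arm had 393 CPM in Ezh2-/- and 337 CPM in wild-type. Neural miR-124-5p was 2.84-fold higher, and its guide arm miR-124-3p was 1.58-fold higher and called under the other 3 scalings only. Neural miR-9-5p had 12 counts in Ezh2-/- and 58 in wild-type.

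miR-378a-5p, encoded in the gene of the coactivator PGC-1beta, had 244 CPM in Ezh2-/-, 46.0 in wild-type, 46.5 in Eed-/- and 158 in Jarid2-/- and was 5.31-fold higher. miR-378b was 3.82-fold higher. A further 2 relatives, miR-378c and miR-378d, were chosen after their values were seen. They had log2 ratios of 1.13 and 1.08, and miR-378a-3p had 0.91, or up to 1.40 under the other scalings. Their sequences are close, so shared reads are possible. Other calls of this kind were miR-672-5p, 4.01-fold higher, miR-182-3p, 3.93-fold higher, miR-150-3p, at 267 counts in Ezh2-/- and 17 in wild-type, and miR-1964-5p, at 199 counts in Ezh2-/- and 8 in wild-type. Without the added 1 CPM these last 2 were 11.7-fold higher and 18.5-fold higher, more than miR-200c-3p, on few wild-type counts. The abundant partner arms of miR-182-3p and miR-150-3p, miR-182-5p and miR-150-5p, were 1.52-fold higher and 1.64-fold higher. Both were called under the TMM, median-ratio and reads-per-million scalings only. The blood cell markers, of which miR-150 is one (9 loci, 6 tested, 1 higher, 0 lower), summed to 9342 CPM in Ezh2-/- and 5887 in wild-type. miR-150-5p alone made up most of both sums, miR-142-3p had 84.2 CPM in Ezh2-/- and 102 CPM in wild-type, 1 marker locus was at 0 in each column, and their part was not tested.

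Other imprinted loci differed among themselves. miR-675-3p, cut from the maternally expressed H19, had 7 counts in Ezh2-/-, 117 in wild-type, 835 in Eed-/- and 11 in Jarid2-/- and was 22.5-fold lower. miR-298-5p of the Gnas locus had 352 CPM in Ezh2-/-, 1668 in wild-type, 1309 in Eed-/- and 1307 in Jarid2-/- and was 4.74-fold lower. miR-335-5p of Mest had 414 CPM in Ezh2-/- and 419 CPM in wild-type, and miR-483-3p of Igf2 10.7 CPM in Ezh2-/- and 12.3 CPM in wild-type. Of the 10 tested loci of these hosts, 4 were called lower, 2 of them under all 4 scalings, and 1 (miR-335-3p) higher, with a median of -0.73. The Sfmbt2 intronic cluster of chromosome 2, which is imprinted in the placenta, had 22 of 129 loci lower and 1 higher. The lower share, 17.1%, is near the 16.2% of all loci outside the span. Those 22 loci carry 12 of its 64 tested names, as near-identical copies have nearly the same counts at many loci. miR-466b-3p, its most abundant lower name, had 16486 counts in Ezh2-/- and 40530 in wild-type at most of its loci.

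Several lists showed no call with the total count as scale. These were, besides the miR-106b-25 cluster, the miR-30 family (12 tested, median -0.14), the miR-34 family (8, median 0.09), the miR-7 family (6, median 0.48), the Hox cluster microRNAs (8, median 0.11) and the muscle microRNAs (10, median -0.68). With the other scalings 2 miR-7 loci, 1 miR-34 locus and 1 muscle locus were called higher, and none of the miR-30, Hox or miR-106b-25 loci. The Hox clusters are classical PRC2 targets, and miR-10, miR-196 and miR-615 within them summed to 219 CPM in Ezh2-/- and 211 CPM in wild-type. With 1 column per genotype, that no locus was called does not show that the levels were equal.

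**Figure D4:**
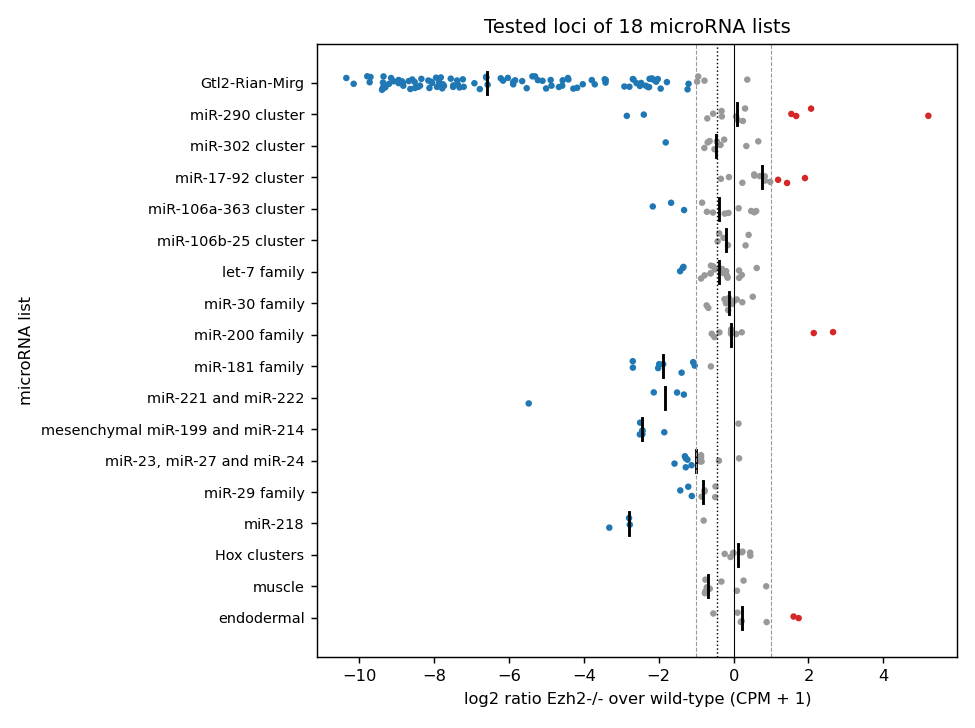
Log2 ratio of each tested locus (x axis, Ezh2-/- over wild-type, CPM + 1) in 18 microRNA lists (y axis), with 1 point per locus, the median of each list as a black bar, 2-fold as dashed lines and the median of all tested loci, -0.44, as a dotted line. Blue points are called lower and red points higher, and the Gtl2-Rian-Mirg list lies apart with a median of -6.59.

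Arms of the same hairpin were compared to see whether differences lay at the hairpin or at 1 arm. Both arms had at least 50 counts in 1 column for 269 hairpins, 223 of them outside the Gtl2-Rian-Mirg span. In 166 of the 223 the log2 ratios of both arms differed by less than 1, in 57 by 1 or more and in 13 by 2 or more. Copies with the same mature names share reads, and with 1 hairpin per pair of mature names these counts were 141, 54 and 13 of 195. Hairpins that share the sequence of 1 arm only, such as miR-199b, are still among them. Both arms were called lower in 19, or 18 with 1 hairpin per pair of mature names, and higher in 2 (miR-291b and miR-192). Several of the lower ones depend on the scaling in 1 or both arms, among them miR-181c, miR-301b and miR-338. In 2 hairpins the arms were called in opposite directions, miR-292 (5p -2.85, 3p 1.67) and miR-6546 (5p -1.10, 3p 1.30, the 5p arm at 17 and 54 counts and its call depending on the scaling).

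For miR-221 the difference lay mainly in the 3p arm, so the 5p share was 50.6% in Ezh2-/-, 5.06% in wild-type, 2.99% in Eed-/- and 4.75% in Jarid2-/-. For miR-200c the 3p arm was higher and the 5p arm level, and the 5p share was 10.3% in Ezh2-/-, 45.6% in wild-type, 5.72% in Eed-/- and 37.4% in Jarid2-/-. For miR-199b it was 77.1% in Ezh2-/-, 35.6% in wild-type, 57.9% in Eed-/- and 29.6% in Jarid2-/-. Its 3p arm has the same sequence as miR-199a-3p, so this share may include reads of the miR-199a hairpins. By contrast, miR-205, miR-210, miR-218-2 and miR-101a were lower in both arms. Inside the span, both arms were called lower in all 46 such hairpins.

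**Figure D5:**
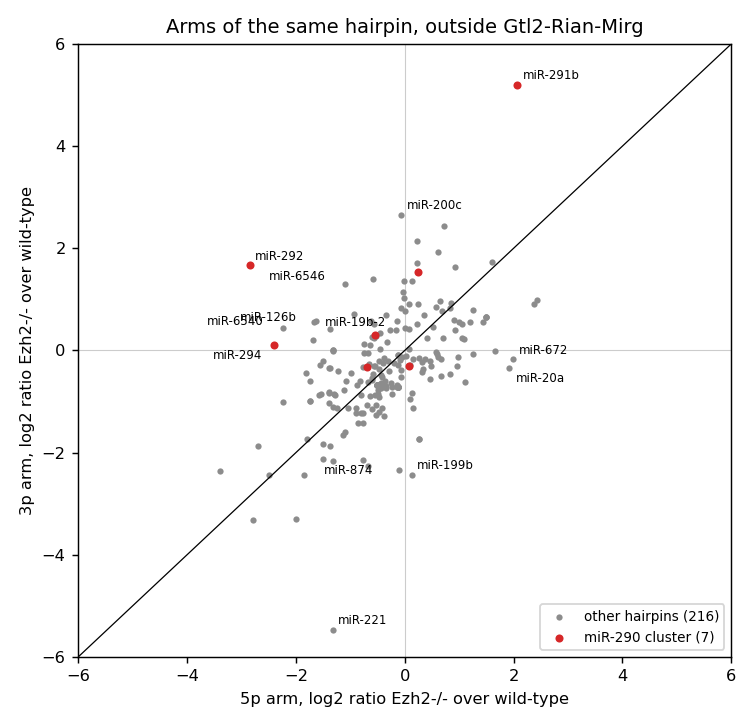
Log2 ratio of the 3p arm (y axis) against that of the 5p arm (x axis) for the 223 hairpins outside the Gtl2-Rian-Mirg span with at least 50 counts for both arms, with 7 hairpins of the miR-290 cluster in red. Hairpins whose arms differ by 2 or more are named, and miR-292 lies in the quadrant where the arms moved in opposite directions.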

How the data were processed

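Small RNA of mouse ES cells was sequenced on a SOLiD instrument after gel selection of 18 to 40 nt, per the labels' protocols. Bowtie, cutadapt and build mm9 appear in the submitters' processing notes. Their versions and settings, and how reads with several matching loci were counted, are not stated in the sources used here. Per the file headers, each deposited table gives a read count for every mature microRNA locus of miRBase release 20, and that count scaled to reads-per-million (RPM). The RPM denominators, 243895676 for Ezh2-/- and 246316316 for wild-type, exceed the microRNA counts, which were 13.2% and 9.66% of them. MicroRNA names, positions and sequences are those of the deposited tables. The hairpins come from RefSeq, and no annotation of exons, introns or UTRs was used.

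The name of each column gave its genotype, that of the wild-type column being the parental line, CJ7. The rows of the 4 tables are identical, and loci were matched by position. From the deposited counts, CPM and log2 ratios with a pseudocount of 1 CPM were computed in Python 3.11.15 (pandas 2.3.3, scipy 1.17.1). Adding 1 CPM understates differences of low loci. Folds without pseudocount have exact conditional binomial 95% intervals. A count of 0 was set to a floor of 3 counts in its column. With reads of PCR products and no molecular identifiers, intervals and floors cover counting error only. Loci just inside the minimum (15 with a highest count of 10) had ratios from -0.51 to 0.28, and those just outside it (26 with 9) from -0.46 to 0.36. The computation of ratios, calls and intervals was tested on simulated counts with counting error only. The true scale was supplied there, so that the choice of scaling was not tested.

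The microRNAs and the 39 lists were chosen with earlier results of these data known. MicroRNAs were named if among the 15 highest or 15 lowest ratios of loci with at least 50 counts in 1 column, the 20 most abundant names per column, the 10 most abundant members of the Gtl2-Rian-Mirg span, list members with at least 100 counts, the 10 hairpins whose arms differed most or the 10 most abundant seeds. The 15 lowest outside the span, and the few named singly for low counts, were added after their values were seen. Alternatives were TMM factors (edgeR 4.0.16), median-ratio size factors (DESeq2 1.42.0), the RPM denominators, the total outside both large clusters, minimums of 1 and 100 counts, pseudocounts of 0.1 and 10, 1 value per mature name and names with 1 locus. The chromatin and messenger RNA samples, including a check of Ezh2 itself, were not analysed here.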

Additional observations from a re-analysis of the deposited data

How the results depend on the processing

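With the total count as scale, 49 loci were called higher and 245 lower. The count of higher loci was 96 with TMM factors, 109 with median-ratio size factors, 101 with the RPM denominators, 87 with a pseudocount of 0.1 and 26 with a pseudocount of 10. The count of lower loci moved by over 1.5 times with a pseudocount of 10 only, to 160, and was 199, 189 and 194 with TMM, median-ratio and RPM scaling. With the total outside both large clusters as scale, 54 loci were higher and 242 lower, with a median of -0.41. The median log2 ratio of all tested loci, -0.44, was -0.15 with TMM, -0.085 with median-ratio factors, -0.13 with the RPM denominators, -0.12 with a minimum of 1 count, -0.59 with a minimum of 100 counts, -0.59 with a pseudocount of 0.1 and -0.13 with a pseudocount of 10. The median of the Gtl2-Rian-Mirg cluster, -6.59, was -6.16 with a minimum of 1 count, -7.38 with 100, -8.92 and -3.45 with pseudocounts of 0.1 and 10, and -6.85 with 1 value per mature name. That of the miR-290 cluster, 0.09, was 0.51 with TMM, 0.59 with median-ratio factors and 0.53 with the RPM denominators. Of the 405 named microRNAs with a value, 207 were called, 138 of them under each alternative that gave a value. None of the 207 changed sign, but the scalings, which moved ratios by at most 0.50, and the pseudocounts could not change the sign of a call. No paired analysis was possible because each genotype has 1 column, and for the same reason no sample could be left out. The depth limits members near 0: in the Ezh2-/- column 3 counts are 0.0935 CPM.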

Other observations

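The calls are given here by chromosome, with the Gtl2-Rian-Mirg span left out. Chromosome 14, with the miR-17-92 cluster, had 6 of 30 tested loci higher and 1 lower (median log2 ratio 0.51), chromosome 6 had 5 of 31 higher and 1 lower, and chromosome 7, with the miR-290 cluster, 9 of 64 higher and 12 lower. Chromosome X had 3 of 98 higher and 23 lower, with a median of -0.66, and the autosomes 46 of 798 higher and 122 lower, with a median of -0.31. The lower share of chromosome X, 23.5%, was matched or passed by chromosomes 1 (26.5%), 8 (23.5%) and 16 (24%). Chromosome X holds several of the clusters described above, so its loci are not independent.

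Called microRNAs differed little from the others in GC content and length. Median GC content was 50% for the 47 higher names and 47.6% for the 126 lower names outside the span, against 50% for the 607 names without a call, and the median length was 22 bases in each. A first base of A was found in 23.4%, 36.5% and 25.7% of them.

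Few loci outside the span were seen in 1 column only. With at least 10 counts in 1 column and 0 in the other, 3 were found in Ezh2-/- and 6 in wild-type. All but miR-1190 had 27 counts or fewer. The highest of the Ezh2-/- loci was miR-3080-5p, with 27 counts there and 0 in wild-type.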
